A study of Mus musculus with 12 samples.

Results

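The transcriptome of tumors grown from HM1 cells was compared with that of the same cells kept in culture. HM1 is a mouse ovarian cancer cell line. Both groups carried a control short hairpin RNA (shControl), and the labels give both the genotype wild type. The culture group was 3 libraries of HM1-shControl cells and the tumor group was 3 libraries of shControl tumors, out of 12 libraries in all. The other 6 libraries, from cultures and tumors with a hairpin against the sialyltransferase gene St3gal3, were used only to set the change in that line beside the change described here. The host strain, its age, the site of injection and the time of growth are not given in the sources used here. Nothing in the labels ties a sample to its own culture dish or its own animal. The p-values therefore rest on the spread among these libraries alone, and that spread could be technical.

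Members of the comparison were genes listed in both the culture and the tumor tables, without assembled loci, of a listed length of 200 bases or more, whose mean reached 1 TPM in at least 1 of the groups. TPM is the share of a gene among all transcripts of a library, corrected for transcript length. It was rescaled to the same total in each library over the 48555 shared genes before any comparison, and 14358 of them passed the filter. Of these, 11710 had means of at least 1 TPM in both groups, 2168 were under 1 TPM in cultures and 480 were under 1 TPM in tumors. Genes of the last 2 kinds entered because they were high in 1 group and so had to differ, and for lists made up mostly of such genes the counts and medians below are a description that supports no direction. Medians of such lists also depend on the pseudocount, that of the macrophage list being 4.74 with 1 TPM added and 7.23 with 0.1 TPM. Tvp23a, at 1 TPM in tumors, stood just inside the threshold, and Slc22a17, at 0.9999 TPM in tumors, just outside it.

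A cultured line holds only tumor cells, whereas a tumor is a mixture. Cancer cells share it with leukocytes, with fibroblasts that lay down collagen, and with endothelial cells and pericytes that form its vessels. The cancer cells themselves leave a medium rich in nutrients, growth factors and oxygen for a tissue where all of these vary. Because TPM is a share, transcripts from host cells also lower the share left for every transcript of the cancer cells. In bulk tissue, fewer cells of a type and less RNA per cell cannot be told apart.

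The libraries of a group resembled each other far more than those of the other group. Across the tested genes, Pearson correlations of log2(TPM + 1) were 0.989 to 0.991 between cultures, 0.980 to 0.987 between tumors and 0.828 to 0.860 between a culture and a tumor; genes are not independent replicates. Genes at 1 TPM or more numbered 12015 to 12348 per culture and 13641 to 13999 per tumor. Depth is unknown, because TPM keeps none. Cultures and tumors were tabulated with separate sets of assembled loci, 645 for cultures and 462 for tumors, so a difference in how the tables were made and a difference between culture and tumor cannot be told apart for any gene.

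Most genes differed. At an adjusted p under 0.05 in limma's moderated test, 9556 of 14358 genes were called, which is 66.6% of those tested. Of these, 5816 (40.5%) were higher in tumors and 3740 (26%) were lower. A test for a change above 2-fold left 1496 genes higher (10.4%) and 484 lower (3.37%). For 10321 genes, 71.9%, the 3 tumors and the 3 cultures did not overlap. The median change over all tested genes was 0.18 on the log2 scale, and changes ran from -7.37 to 9.48. With so large a background, the share of a list that was called says little, and each list below is described by its direction, its size and its levels. The balance between directions depended on scaling: 60.9% of calls were higher in tumors as reported, 53.9% with median-of-ratios scaling and 43.7% with quantile normalization, which moved the median over all genes by -0.11 and -0.26.

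**Figure D1:**
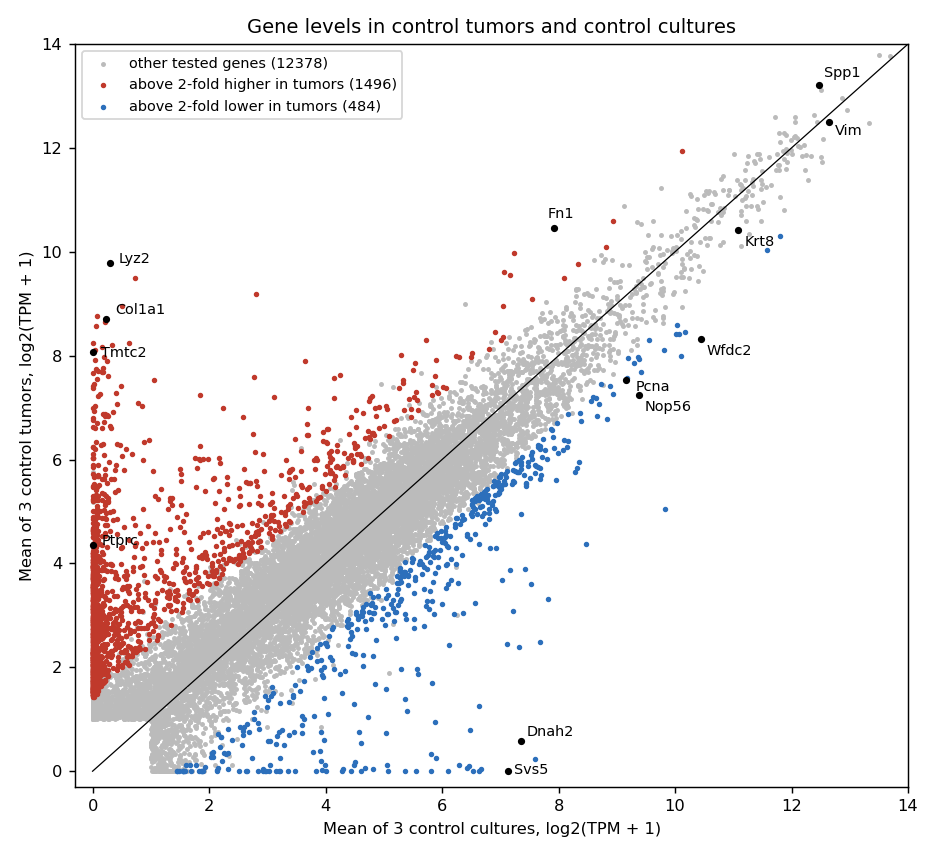
Mean log2(TPM + 1) of each tested gene in 3 control cultures (horizontal axis) and 3 control tumors (vertical axis); red and blue points passed the test for a change above 2-fold, and the line marks equal levels. A column of genes near 0 in cultures, with Lyz2, Col1a1, Tmtc2 and Ptprc, rises along the left edge, whereas fewer genes (Svs5, Dnah2) lie along the bottom.

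Short stretches of promoter show 2 sets of genes whose tumor and culture levels are given further on. Promoter sequences are from RefSeq on the build GRCm38.p6, whereas the processing notes name GRCm39 for the expression tables, so these positions are not those of the authors' build. The 250 bases before each annotated start were searched on both strands. Each stretch is read along the gene's own strand, and capitals mark the match closest to the start, which for Ifit1, Ifit3, Rsad2 and Car9 lies on the opposite strand and is printed as its reverse complement. The motif GAAANNGAAA is the core of the element through which interferon-activated transcription factors bind the promoters of interferon-stimulated genes. It was found in 9 of 23 promoters of that list (39.1%, with 20 of its 29 genes matched to a promoter) and in 978 of 32851 promoters of all genes (2.98%). Isg15 lies at chr4:156200840-156200919 on the minus strand, Ifit1 at chr19:34640769-34640848 on the plus strand, Ifit3 at chr19:34583372-34583451 on the plus strand and Rsad2 at chr12:26456528-26456607 on the minus strand.
Isg15: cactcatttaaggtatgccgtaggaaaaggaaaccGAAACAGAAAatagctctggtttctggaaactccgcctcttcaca
Ifit1: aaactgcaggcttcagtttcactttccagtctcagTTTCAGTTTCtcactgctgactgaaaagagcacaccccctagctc
Ifit3: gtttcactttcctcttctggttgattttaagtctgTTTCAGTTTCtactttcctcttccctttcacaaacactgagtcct
Rsad2: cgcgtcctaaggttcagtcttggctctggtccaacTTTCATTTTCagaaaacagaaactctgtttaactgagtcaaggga

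The core of the hypoxia response element, ACGTG, which the hypoxia-inducible factors bind, was found in 14 of 23 promoters of the hypoxia list (60.9%, 16 of 20 genes matched) and in 5444 of 32851 promoters (16.6%). It is also contained in the E-box CACGTG, the site of Myc and related factors, which stood in 1 of 17 promoters of the Myc and ribosome biogenesis list (5.88%) and in 6.02% of all promoters. A match describes these letters and not a bound site. Car9 lies at chr4:43506973-43507025 and Slc2a1 at chr4:119108674-119108744, both on the plus strand, and Bnip3 at chr7:138909574-138909648 and Egln3 at chr12:54204064-54204124, both on the minus strand.
Car9: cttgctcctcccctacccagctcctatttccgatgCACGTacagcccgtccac
Slc2a1: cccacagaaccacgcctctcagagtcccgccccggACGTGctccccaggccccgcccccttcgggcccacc
Bnip3: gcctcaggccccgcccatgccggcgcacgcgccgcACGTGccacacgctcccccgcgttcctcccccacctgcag
Egln3: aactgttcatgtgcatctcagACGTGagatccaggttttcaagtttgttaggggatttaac

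Leukocyte transcripts were among those that tumors had and cultures lacked or nearly lacked. Ptprc, which encodes the leukocyte surface phosphatase CD45, was listed at 0 in the 3 cultures and at 17.5, 19.7 and 20.9 TPM in the 3 tumors. Laptm5, a lysosomal protein of blood cells, was at 0.02 to 0.10 TPM in cultures and at 87.3 to 112 TPM in tumors. All 14 genes of the pan-leukocyte list were higher in tumors, 9 of them with culture means under 1 TPM that entered through the tumors alone. Their median change was 4.83 on the log2 scale, or 5.37 without the 2 genes listed at 0 in every culture. The summed level of the list was 47.0, 47.6 and 57.0 TPM in cultures and 732, 957 and 930 TPM in tumors.

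Of the leukocyte lists, that of monocytes and macrophages had the highest sum. Lyz2, the lysozyme of myeloid cells, stood at 0.35, 0.21 and 0.11 TPM in cultures and at 759, 1042 and 828 TPM in tumors, a change of 9.48 ± 0.13 (SE) on the log2(TPM + 1) scale, the largest fitted. No test is given for it, since it entered through the tumors alone and was named for its size. Csf1r, the receptor through which macrophages receive their survival signal, was at 0.05 TPM or less in cultures and at 28.9, 41.3 and 43.0 TPM in tumors. Adgre1, the macrophage antigen F4/80, was listed at 0 in every culture and at 12.6 to 15.7 TPM in tumors. Tumor 1 had the lowest Csf1r of the 3 and the highest Adgre1. The complement genes C1qa, C1qb and C1qc, made in tissue chiefly by macrophages, reached 191, 331 and 304 TPM, 143, 249 and 230 TPM, and 134, 220 and 207 TPM in tumors 1 to 3, with at most 0.12 TPM in a culture.

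Of the 26 genes of the monocyte and macrophage list all were higher in tumors, 21 of them with culture means under 1 TPM and 7 listed at 0 in each culture. The summed level rose from 51.5 to 64.1 TPM in cultures to 2898 to 3852 TPM in tumors, a ratio of group means of 62.5. A few listed genes were already present in cultured cells. Cd68, a lysosomal glycoprotein, was at 14.5 ± 1.52 TPM (SD, n = 3) in cultures and 81.2 ± 5.75 TPM in tumors, 5.59-fold higher. Cd14, a co-receptor for bacterial lipopolysaccharide, was 3.41-fold higher, from 24.7 to 84.3 TPM. Mrc1, the mannose receptor, rose 11.4-fold and Apoe, the lipid carrier apolipoprotein E, 96.1-fold, from 6.03 to 580 TPM. Arg1, an enzyme that consumes arginine and is made by some tumor macrophages, was at 280, 197 and 241 TPM in tumors against 0.05 TPM or less in cultures.

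Neutrophil genes were led by the matrix-degrading enzyme Mmp9, at 500, 518 and 464 TPM in tumors and under 0.6 TPM in cultures. Mmp9 is also made by macrophages. The calprotectin genes S100a8 and S100a9 stood apart in tumor 1, at 98.9 and 223 TPM, against 32.6 and 77.9 TPM in tumor 2 and 43.0 and 99.4 TPM in tumor 3. Csf3r, the receptor for granulocyte colony-stimulating factor, was at 9.02 to 12.5 TPM and Retnlg at 13.5 to 17.1 TPM in tumors. In all, 10 of 11 tested genes of the list were higher, with a median of 3.23, and 9 of the 11 had culture means under 1 TPM. Ly6g did not pass (0.998 TPM in cultures, 1.36 TPM in tumors), and Ltf, Ngp, Camp, Elane and Mpo, which encode granule proteins of immature neutrophils, were below the filter.

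Dendritic cell genes included Ccl22 and Ccl17, chemokines that attract T cells, at 22.6 to 26.0 TPM and 39.2 to 78.9 TPM in tumors. Itgax, the integrin CD11c, was at 15.6, 31.2 and 25.1 TPM in tumors, lowest in tumor 1. All 11 tested genes were higher (median 2.66), 9 of them with culture means under 1 TPM, whereas Flt3, Xcr1 and Siglech stayed below the filter, Flt3 at 0.93, 0.80 and 1.21 TPM in tumors and at 0 in cultures. Among mast cell and basophil genes, 8 of 10 were higher (median 2.45), and 8 had culture means under 1 TPM, led by the tryptases Tpsab1 and Tpsb2, at 14.9 to 20.8 TPM and 13.3 to 21.7 TPM in tumors. Mcpt8, a basophil protease, was present in cultures at 50.5 to 55.1 TPM and was slightly lower in tumors, at 43.4 to 46.8 TPM, a call that was lost on leaving out any 1 of the 6 libraries (adjusted p from 0.0518 to 0.123 in limma).

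T cell transcripts were much scarcer than those of macrophages and varied between tumors. Trac, the constant region of the T cell receptor alpha chain, was listed at 0 in cultures and at 5.71, 8.85 and 11.8 TPM in tumors. Cd3e, a signalling chain of the same receptor, was at 1.20, 2.51 and 2.70 TPM. Cd8a, which marks cytotoxic T cells, was at 0.24, 2.80 and 2.33 TPM, and tumor 1 was the lowest in each of these 3 genes. The call of Cd8a, which entered through the tumors alone, was lost with quantile normalization and on leaving out any 1 library other than tumor 1. Cd4 was at 4.36, 3.77 and 6.87 TPM. All 18 tested T cell genes were higher, 16 of them with culture means under 1 TPM, with a median of 1.56, which became 0.75 with quantile normalization. The largest of these, Thy1, at 84.8 to 119 TPM, is also made by fibroblasts and stands in both lists.

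Genes of cytotoxic granules differed in their order among tumors. Gzmb, the serine protease granzyme B, was at 29.4, 26.6 and 28.4 TPM in tumors and at 0.04 TPM or less in cultures. Prf1, the pore-forming protein perforin, was at 12.50, 12.71 and 12.04 TPM. Gzma, at 1.56, 2.12 and 2.52 TPM, and Nkg7, a granule membrane protein at 3.12, 7.37 and 8.69 TPM, were lowest in tumor 1, whereas Gzmb and Prf1 were not. Of 10 tested genes of the cytotoxic lymphocyte and NK cell list, 9 were higher (median 2.49), 8 of the 10 having culture means under 1 TPM, whereas 7 others, among them Ifng at 0.34 to 0.93 TPM in tumors, were below the filter. Granzymes outside that list were higher still in level. Gzmc and Gzmg were listed at 0 in every culture and reached 115, 90.5 and 90.0 TPM and 162, 111 and 108 TPM in tumors. Gzmd, Gzme and Gzmf, chosen after their values were seen, averaged 129, 99.1 and 96.3 TPM in tumors. Gzme was also present in cultures, at 31.1 TPM, and rose 3.19-fold. These genes are near-identical neighbours, so reads could be shared between them and their separate levels are uncertain.

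Some genes named for lymphocytes went the other way. Eomes, a transcription factor of cytotoxic lymphocytes that also acts in early development, was at 11.5 to 13.3 TPM in cultures and fell to 30.7% of that mean in tumors. Tigit, an inhibitory receptor of T and NK cells, was at 52.2, 51.8 and 39.2 TPM in cultures and at 15.4, 16.2 and 12.9 TPM in tumors, a drop to 31.1%. In the same cultures Ptprc, Cd3e and Trac were listed at 0. Of the 12 tested regulatory T cell and checkpoint genes 10 were higher and Tigit alone was lower, and 9 had culture means under 1 TPM. Ctla4 and Pdcd1, inhibitory receptors of activated T cells, were listed at 0 in cultures and averaged 4.31 ± 0.692 and 2.03 ± 1.17 TPM in tumors. Havcr2 did not differ beyond the spread, at 9.65 and 10.7 TPM (change 0.12 ± 0.14).

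Antibody transcripts varied widely between tumors. Igkc, the kappa light chain, was at 45.8, 223 and 445 TPM in tumors 1 to 3 and at 0.38 TPM or less in cultures. Jchain, which links antibody multimers, was at 1.31, 5.12 and 8.57 TPM in the same order. The B cell genes Ms4a1, Cd79a and Pax5 were all below the filter, with Ms4a1 at 0.03 to 0.11 TPM in tumors. The 5 genes of the list that were tested were all higher, each with a culture mean under 1 TPM. The call of Jchain was lost with quantile normalization.

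**Figure D2:**
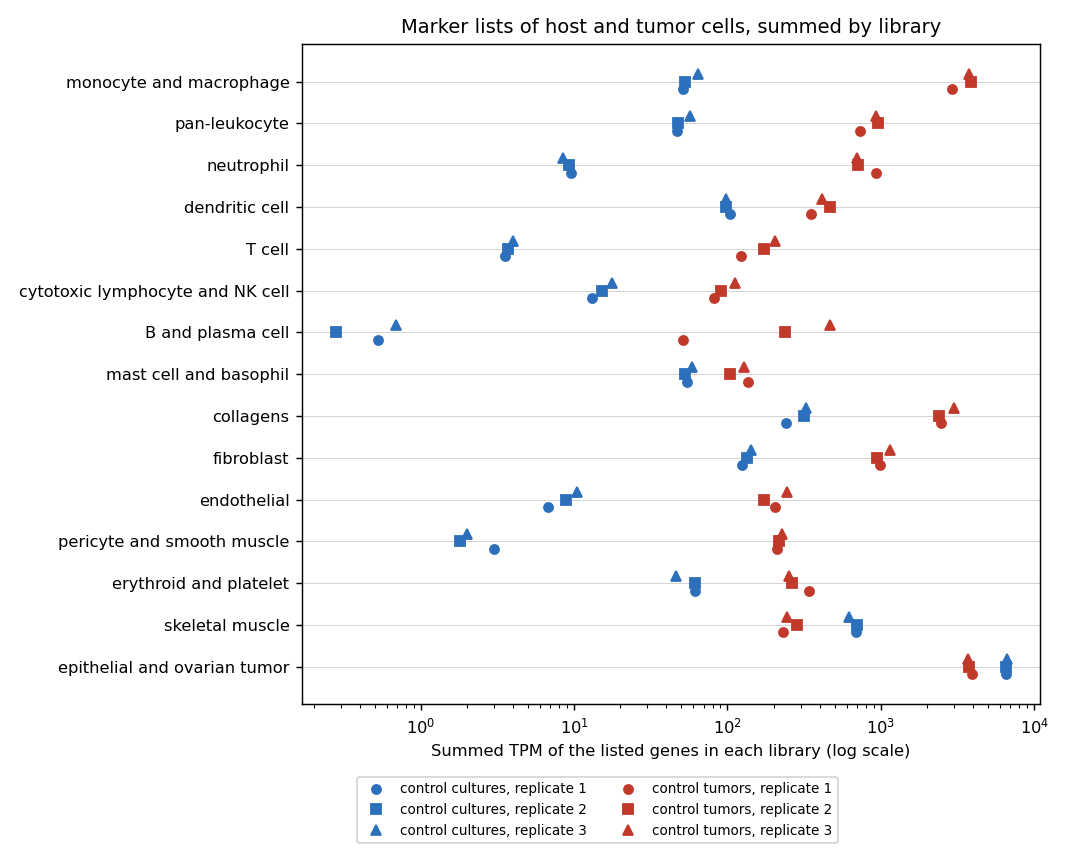
Summed TPM of the genes of 15 marker lists in each of 3 control cultures (blue) and 3 control tumors (red) on a log scale, with 1 symbol per replicate number. Macrophage genes sum to 2898 to 3852 TPM in tumors, the B and plasma cell sums spread from 51.3 to 469 TPM, and the epithelial sum is lower in tumors than in cultures. The skeletal muscle sum is almost all Eno3, and without it the order of the groups is not the one drawn (up to 4.20 TPM in cultures and up to 18.9 TPM in tumors).

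The main fibrillar collagens were near 0 in cultures. Col1a1 and Col1a2, the chains of type I collagen, were at 413, 371 and 468 TPM and at 352, 348 and 436 TPM in tumors and at 0.23 TPM or less in cultures. Col3a1, of type III collagen, was at 361, 340 and 507 TPM. Of 18 tested collagen genes 16 were higher, with a median of 5.70, and 11 had culture means under 1 TPM. Of the 3 collagens described first, tumor 3 had the highest level of each. Col7a1, at 31.0 TPM in cultures and 36.7 TPM in tumors, and Col8a1, at 17.3 and 20.2 TPM, did not pass. Col4a1, of basement membranes, was made by cultured cells at 58.0 ± 12.2 TPM and rose 3.33-fold.

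All 19 tested fibroblast genes were higher, 18 of them with culture means under 1 TPM, with a median of 4.36. Postn, a matrix protein of activated fibroblasts, was at 186, 163 and 229 TPM in tumors and at 0.41 TPM or less in cultures. Acta2, the smooth muscle actin of myofibroblasts and pericytes, was at 98.04, 101.3 and 100.01 TPM, against 0.19 to 0.28 TPM in cultures. Fap, a surface protease of activated fibroblasts, was listed at 0 in cultures and at 7.18 to 7.76 TPM in tumors. Pdgfra was at 0.664 ± 0.134 TPM in cultures and 6.23 ± 1.55 TPM in tumors.

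Vessel genes followed. Pecam1, the endothelial adhesion molecule CD31, was at 26.1, 22.1 and 29.2 TPM in tumors and at 0.14 to 0.19 TPM in cultures. Cldn5, a tight junction protein of endothelium, was listed at 0 in cultures and at 9.70 to 12.1 TPM in tumors. All 18 endothelial genes were higher (median 3.09), 17 of them entering through the tumors alone, and tumor 2 had the lowest sum, 174 TPM against 205 and 243 TPM. Pdgfrb and Rgs5, which mark pericytes, were at 31.1, 33.8 and 41.8 TPM and at 16.8, 16.6 and 20.3 TPM in tumors, and all 11 tested genes of the pericyte and smooth muscle list were higher (median 2.85), 10 of them entering in the same way. Of 3 tested lymphatic genes 2 were higher, and all 3 had culture means under 1 TPM. Ccl21a, a chemokine of lymphatic endothelium, was at 0.07, 27.4 and 2.28 TPM in tumors and did not pass.

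Blood was detectable in tumors, but at low levels. The globin genes Hbb-bs, Hba-a1 and Hba-a2 averaged 38.5, 18.2 and 35.8 TPM in tumors, against at most 0.38, 1.37 and 1.98 TPM in a culture. The paired alpha globin genes are near-identical, so their separate levels are uncertain. Pf4, a platelet chemokine that some macrophages also make, was at 202, 127 and 124 TPM. In the erythroid and platelet list 6 of 7 tested genes were higher, 2 of the 7 having culture means under 1 TPM. Of the 18 skeletal muscle genes 14, with Ckm and Myh4 among them, were below the filter. Tumor 2 stood apart in several of the muscle genes. The actin Acta1 was at 0.43, 3.80 and 0.11 TPM and the myosin light chain Mylpf at 1.71, 5.79 and 1.87 TPM in tumors 1 to 3, and the 17 members other than Eno3 summed to 4.18, 18.9 and 5.32 TPM, against 2.75 to 4.20 TPM in cultures. Neither Acta1 nor Mylpf passed the test, and the adipocyte gene Adipoq was at 0.36 TPM or less. Eno3, a muscle enolase, was made by cultured cells at 614 to 697 TPM and was lower in tumors, at 36.7% of the culture mean. Fabp4, of adipocytes, macrophages and capillary endothelium, was at 6.64 to 15.8 TPM in tumors. In all, 2 of 5 tested adipocyte genes and 2 of 4 Schwann cell genes were higher. Culture means were under 1 TPM for 3 of the 5 and for 3 of the 4.

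Secreted matrix proteins and the enzymes that cut them were mostly higher. Fn1, fibronectin, was at 181, 230 and 311 TPM in cultures and at 1319, 1369 and 1526 TPM in tumors, 5.84-fold higher. Sparc rose 5.94-fold, from 132 to 784 TPM. Of 23 matrix glycoprotein and proteoglycan genes 21 were higher (median 1.27), and Vcan and Lamb2 did not pass. Of the 23, 11 had culture means under 1 TPM and entered through the tumors alone. All 19 tested matrix metalloproteinases and inhibitors were higher (median 2.61), 7 of them with culture means under 1 TPM. Mmp14, a membrane-bound collagenase, rose 10.9-fold from 17.9 TPM, and Mmp12, the elastase of macrophages, was at 245, 333 and 279 TPM against 0.16 TPM or less. Mmp3 varied most, at 124, 37.6 and 176 TPM in tumors.

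Signals between cells included a strong chemokine component. Ccl24, an eosinophil attractant, was at 418, 497 and 385 TPM in tumors and at 0.17 TPM or less in cultures, and Ccl6 was at 282 to 311 TPM in tumors. Ccl2, which recruits monocytes, was made by cultured cells at 61.4, 61.6 and 31.9 TPM and rose 6.08-fold. Of 29 tested chemokines 23 were higher (median 3.48), with 17 under 1 TPM in cultures, and Ccl20 alone was lower, from 1.79 to 0.583 TPM. Among interleukins and cytokines 15 of 20 were higher, 11 of the 20 with culture means under 1 TPM, and Lif was lower, a call lost without culture 2, tumor 1 or tumor 3 (adjusted p of up to 0.0924 in limma). Il1b, an inflammatory cytokine of myeloid cells, was listed at 0 in cultures and at 117, 111 and 104 TPM in tumors. Il11 rose 9.11-fold, from 4.04 to 36.7 TPM. Spp1, the secreted phosphoprotein osteopontin, was already among the most abundant transcripts of cultured cells, at 5339, 5136 and 6467 TPM, and rose 1.68-fold to 9683, 9467 and 9380 TPM. Complement genes were higher in 16 of 20 cases and lower in none (median 2.39), with 12 under 1 TPM in cultures.

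**Figure D3:**
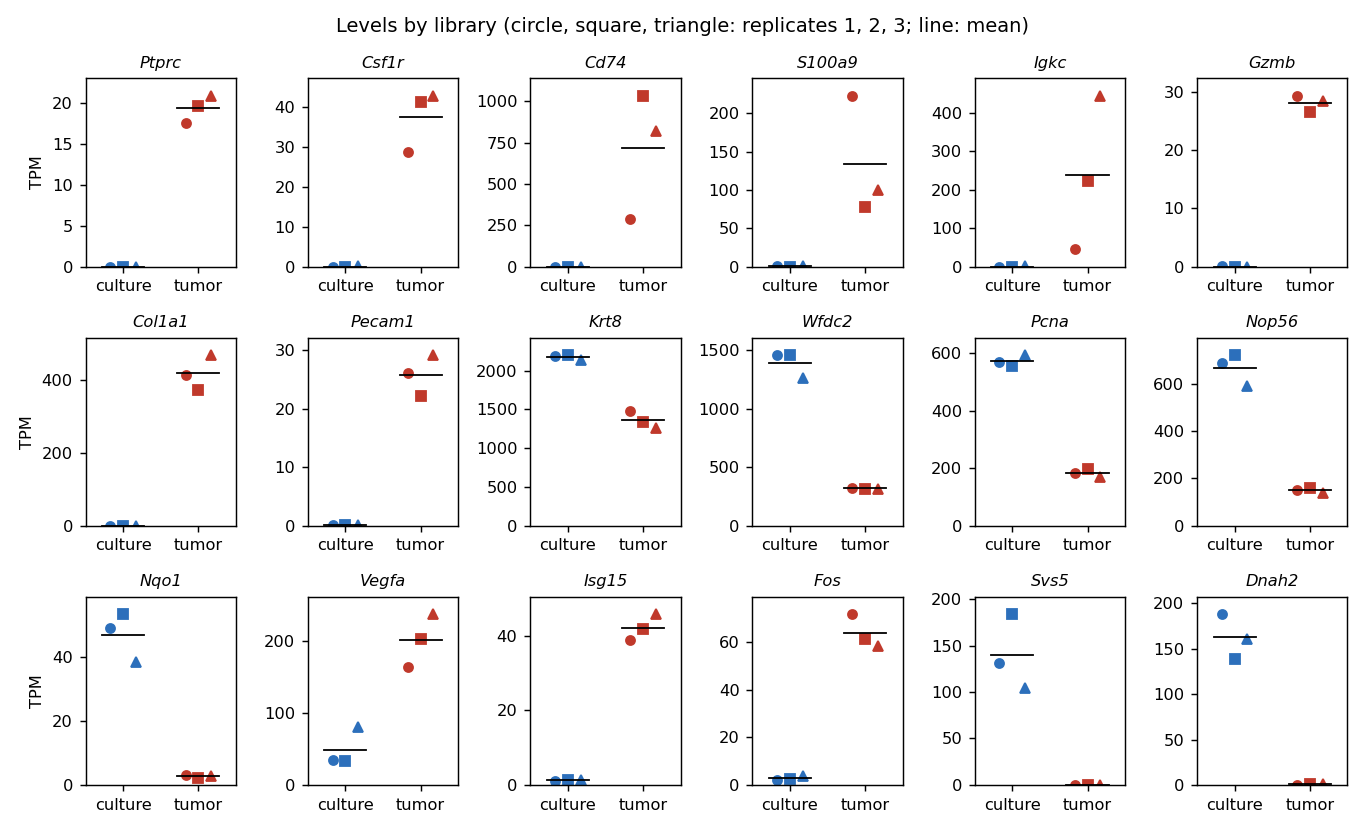
TPM of 18 genes in each library, with the mean of each group as a line; each panel has its own axis, which starts at 0. Igkc, Cd74 and S100a9 differ widely between the 3 tumors, Gzmb does not, and Vegfa is higher in culture 3 than in the other 2 cultures.

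Markers of an epithelial ovarian tumor were only partly present, in cultures as in tumors. The keratin genes Krt8 and Krt18 were abundant, at 2183, 2206 and 2143 TPM and at 1780, 1786 and 1676 TPM in cultures. They fell to 62.6% and 64.1% of those means in tumors, with no overlap (changes of -0.68 ± 0.067 and -0.64 ± 0.065, adjusted p = 2.62e-05 and 2.78e-05 in limma). Krt19 fell to 72.2%. Wfdc2, which encodes the ovarian cancer antigen HE4, fell further, from 1392 ± 111 to 319 ± 5.27 TPM. Epcam, Krt7, Pax8 and Cldn4 were below the filter, each at 0.57 TPM or less in all 6 libraries, and Vim, the intermediate filament of mesenchymal cells, was at 6422 TPM in cultures and 5754 TPM in tumors. The change of Vim did not pass. The epithelial adhesion gene Cdh1 was at 0.04 TPM or less in cultures and at 4.52 to 5.08 TPM in tumors, and Spint1 was at 8.09 to 11.3 TPM. Msln, the surface protein mesothelin, rose 3.35-fold. In the epithelial and ovarian list 5 of 13 tested genes were higher and 6 lower. Of the 13, 3 entered through the tumors alone and 1 through the cultures alone, so their direction was set by the filter.

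Of 4 tested mesothelial genes 2 were higher and 2 lower, 1 entering through the tumors alone and 1 through the cultures alone. Msln, Wt1 and Krt19 stand in both this list and the epithelial and ovarian list. Genes linked to a mesenchymal state were mostly higher, 11 of 14, with a median of 1.40 that became 0.86 with quantile normalization. Of the 14, 3 had culture means under 1 TPM. Zeb1 and Zeb2, repressors of epithelial genes, rose 3.73-fold and 2.48-fold from 4.95 and 6.76 TPM. Snai2 was at 0.03 TPM or less in cultures and at 2.01 to 2.55 TPM in tumors, whereas Twist2 fell to 39.1% of 46.1 TPM. Fibroblast markers moved with these genes, all 19 tested being higher with sums of 124 to 142 TPM in cultures and 948 to 1142 TPM in tumors, and their part was not tested.

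Proliferation genes were lower in tumors. Pcna, the sliding clamp of DNA replication, was at 568, 557 and 595 TPM in cultures and at 182, 198 and 170 TPM in tumors, 32.0% of the culture mean. Rrm2, a subunit of ribonucleotide reductase, fell to 18.6% and Ccne1, a cyclin of entry into DNA synthesis, to 15.4%. Mki67 was at 36.6, 54.5 and 59.5 TPM in cultures and 26.5, 27.0 and 22.5 TPM in tumors (50.5%). In all, 22 of 24 genes fell, 11 of them by more than 2-fold under the stricter test, and the median was -1.21. Ccnb2, a mitotic cyclin, was 1.48-fold higher, and Cdc20 did not pass. Beside this and the following decreases, Krt8 and Krt18 stood at 62.6% and 64.1% of the culture level while the pan-leukocyte, fibroblast and endothelial sums rose, and the part of added host transcripts in the decreases was not tested.

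Genes of ribosome assembly moved with them. Every one of the 22 genes of the Myc and ribosome biogenesis list was lower, with a median of -1.39 and changes from -2.24 to -0.72. Nop56, a protein of the complexes that modify ribosomal RNA, was at 687, 723 and 592 TPM in cultures and at 151, 158 and 140 TPM in tumors, 22.4% of the culture mean. Ncl (nucleolin), Npm1 (nucleophosmin) and Odc1, the first enzyme of polyamine synthesis, fell to 32.9%, 35.7% and 40.0%. Myc itself fell less, from 186 ± 5.55 to 112 ± 6.92 TPM (60.4%). Tfrc, the transferrin receptor, which belongs to no list here and was chosen after its value was seen, fell from 74.4 to 14.9 TPM.

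Ribosomal proteins did not share this fall. The 28 genes summed to 76518 to 82403 TPM in cultures and to 76693 to 80001 TPM in tumors, so the ranges overlapped, and the ratio of means was 0.986. Of these, 12 were higher and 8 lower, and the median change of 0.03 lay below the median of all genes and turned to -0.092 with median-of-ratios scaling. Rps14 rose 1.51-fold and Rplp1 fell to 55.2%. Ribosomal protein genes have many processed pseudogenes, so single levels are uncertain.

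Serine, one-carbon and nucleotide synthesis, which supplies the building blocks of DNA and RNA, was lower in 17 of 19 genes (median -1.53). Phgdh and Psat1, the first enzymes of serine synthesis, fell to 31.3% and 27.0% of 487 and 181 TPM, and Mthfd1 of the folate cycle to 28.8%. Cad, the first enzyme of pyrimidine synthesis, fell to 20.1%, from 97.8 ± 19.8 to 19.7 ± 1.94 TPM. Asns, asparagine synthetase, fell to 28.6% and the glutamine transporter Slc1a5 to 39.6%. Among 9 amino acid transporters 4 were lower and 2 higher, with Slc38a1 rising 5.76-fold from 0.544 TPM.

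**Figure D4:**
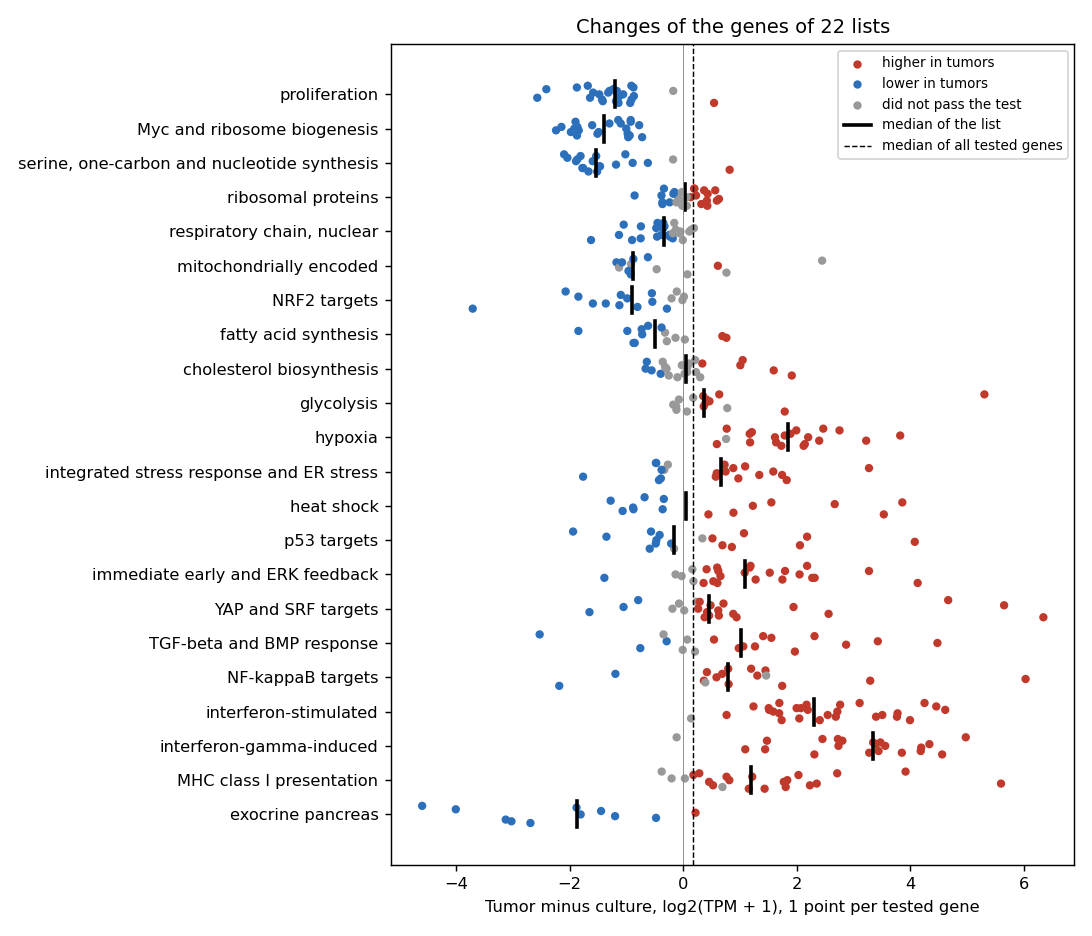
Tumor minus culture change on the log2(TPM + 1) scale for each tested gene of 22 lists, coloured by call, with the median of each list as a bar and the median of all tested genes, 0.18, as a dashed line. Myc and ribosome biogenesis, proliferation and serine synthesis lie to the left, hypoxia and interferon-stimulated genes to the right, and heat shock and p53 targets on both sides.

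Oxygen-related genes were higher. Vegfa, the main vessel growth factor, was at 34.0, 32.9 and 80.2 TPM in cultures and at 164, 202 and 237 TPM in tumors (change 2.12 ± 0.39, adjusted p = 0.00513 in limma). Culture 3 stood apart in these genes. The 20 genes of the hypoxia list summed to 568 and 593 TPM in cultures 1 and 2 and to 1136 TPM in culture 3, and to 2389, 2441 and 2907 TPM in tumors, so the groups did not overlap. Without culture 3 the median change of the list was 2.15 in place of 1.84. Bnip3, a mitochondrial protein induced by low oxygen, was at 69.8, 62.5 and 210 TPM in cultures against 287 to 340 TPM in tumors, and its call was lost without culture 1, culture 2, tumor 2 or tumor 3 (adjusted p of up to 0.0927 in limma). Egln3, an oxygen-sensing hydroxylase that is itself induced, was at 0.05 TPM or less in cultures and at 12.1 to 14.8 TPM in tumors. Car9, carbonic anhydrase IX, rose 5.72-fold, from 1.35 TPM. In all, 19 of 20 genes were higher (median 1.84), and Pdk1 did not pass, at 20.9, 23.2 and 47.1 TPM in cultures and 45.2 to 51.7 TPM in tumors. Motif matches in 4 of these promoters are printed above.

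Most of glycolysis changed little. Of 15 genes 8 were higher and none lower (median 0.36), and the sums overlapped, at 12952 to 16953 TPM in cultures and 14502 to 15653 TPM in tumors, with culture 3 highest of all. The glucose carrier Slc2a1 rose 3.43-fold and the lactate exporter Slc16a3 was at 42.9 to 53.5 TPM in tumors against 0.44 TPM or less in cultures. Gapdh, Eno1, Pkm and Ldha did not pass. Nuclear genes of the respiratory chain were lower in 17 of 26 cases and higher in none (median -0.34), and their summed level was 75.6% of that in cultures. Cox7b fell to 32.5% and Ndufa4 to 45.6%.

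Mitochondrially encoded genes split. Their sum was 29704 to 31260 TPM in cultures and 26776 to 30554 TPM in tumors. Yet 6 of 13 genes were lower, among them mt-Nd2 at 44.3% and mt-Cytb at 47.6% of the culture mean, while mt-Co1 rose 1.53-fold. Within the list mt-Co3 was erratic, at 187, 0.26 and 342 TPM in cultures. The transcripts of this genome overlap and the tables do not say how shared reads were divided, so single values are uncertain.

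Lipid synthesis moved in both directions. Among 22 tested cholesterol biosynthesis genes 5 were higher, 4 lower and 13 did not pass. The median of 0.05 turned negative with median-of-ratios scaling (-0.068) and with quantile normalization (-0.11). Insig1, which senses sterols, rose 3.91-fold. Fatty acid synthesis was lower in 8 of 14 genes and higher in 2 (median -0.50). Fasn fell to 54.2%, Srebf1, its transcriptional regulator, to 54.1% and Me1, a source of NADPH, to 25.1%, whereas Acly, which makes acetyl-CoA, rose 1.69-fold.

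Targets of NRF2, the regulator of antioxidant genes, were lower in 12 of 16 cases and higher in none (median -0.90). Nqo1, a quinone reductase, was at 48.9, 53.5 and 38.4 TPM in cultures and at 3.16, 2.04 and 2.78 TPM in tumors, 5.67% of the culture mean. Gclm, of glutathione synthesis, fell to 22.3%. Hmox1, Slc7a11, Prdx1 and Osgin1 did not pass, Hmox1 at 68.4 and 69.3 TPM. Cyp1a1, a classic target of the aryl hydrocarbon receptor like Nqo1, was at 19.62, 20.99 and 15.64 TPM in cultures and at 0.06 TPM or less in tumors.

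Stress responses were mixed. In the integrated stress response and endoplasmic reticulum stress list 12 of 20 genes were higher and 6 lower. Those higher included Atf3 (16.8-fold), Xbp1 (3.41-fold) and Ddit3 (2.66-fold), and those lower Atf4 (74.2% of the culture mean), Trib3 and Asns, targets of amino acid limitation. The call of Trib3 was lost without culture 3, tumor 1 or tumor 2 (adjusted p of up to 0.0578 in limma). Heat shock genes divided 7 and 7. The inducible Hspa1a and Hspa1b were near 0 in cultures and at 7.39 to 14.02 and 10.83 to 18.02 TPM in tumors, while Hspa8, Hspd1 and Hspe1, which act in unstressed cells, fell to 54.3%, 41.2% and 54.2%. Serpinh1, the chaperone of collagen, rose 2.95-fold. The list's median of 0.05 turned to -0.066 with median-of-ratios scaling. Of 17 p53 targets 7 were higher and 8 lower, with Gadd45a rising 19.1-fold and Mdm2 falling to 39.5%, and Cdkn1a did not pass.

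Immediate early genes, which are switched on within minutes by growth factors, were higher in 20 of 25 cases (median 1.08). Fos was at 2.18, 2.40 and 3.60 TPM in cultures and at 71.8, 61.2 and 58.3 TPM in tumors, 23.4-fold higher. Junb and Egr1 rose 2.90-fold and 2.31-fold, and Fosl1 fell to 37.5%. Targets of YAP and SRF, which respond to stretch and the cytoskeleton, were higher in 16 of 23 cases and lower in 3. The largest increases among them were Acta2, Tagln and Myl9, contractile genes of smooth muscle, while the YAP targets Ankrd1, Ajuba and Amotl2 fell to 30.6%, 46.7% and 56.0%, and Ccn1 rose 1.96-fold.

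In the TGF-beta and BMP list 11 of 18 tested genes were higher and 3 lower. Tgfbi, a matrix protein induced by TGF-beta, rose 29.5-fold, and Id1, an immediate target of BMP signalling, was at 305, 282 and 344 TPM in cultures and at 63.5, 50.8 and 45.5 TPM in tumors, 17.2%. Of Wnt, Notch and Hedgehog genes 9 of 12 tested were higher and 2 lower, 5 of the 12 having culture means under 1 TPM. The median of 0.72 became 0.27 with quantile normalization. Dll4, a Notch ligand of sprouting vessels, was at 4.89 to 6.33 TPM in tumors, and Nrarp fell to 50.3%. NF-kappaB targets were higher in 12 of 16 cases, Nfkbia 3.41-fold, but Sod2 and Ptgs2, the inducible cyclooxygenase, fell to 43.4% and 21.1%. Circadian clock genes were higher in 5 of 13 cases, near the 40.5% of all tested genes that were higher, and 8 did not pass. The median of that list, 0.45, became 0.063 with quantile normalization. Arntl rose 2.86-fold. Of 10 glucocorticoid response genes 7 were higher and 1 lower. Tsc22d3, a widely used reporter of that hormone, rose 5.52-fold, and Fkbp5, another, fell to 81.0%, a call lost without culture 2 or tumor 3 (adjusted p of up to 0.0571 in limma).

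Interferon-stimulated genes were higher in 27 of 28 tested cases, 17 of them with culture means under 1 TPM, with a median of 2.30. Isg15, a ubiquitin-like antiviral protein whose promoter stretch is printed above, was at 1.13, 1.39 and 1.24 TPM in cultures and at 38.8, 41.6 and 45.8 TPM in tumors, 33.5-fold higher. Ifit1, Ifit3 and Rsad2, antiviral effectors, were at 4.79 to 5.05, 11.02 to 13.33 and 2.71 to 3.57 TPM in tumors and at 0.25 TPM or less in cultures. Bst2 was the most abundant, at 96.2 TPM in cultures, and rose 2.38-fold. Genes induced by interferon gamma were higher in 20 of 21 cases (median 3.35), 14 of the 21 having culture means under 1 TPM, and tumor 1 stood below the others. Cxcl9, a chemokine for T cells, was listed at 0 in cultures and at 9.41, 30.3 and 39.7 TPM in tumors 1 to 3.

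Antigen presentation genes were likewise lowest in tumor 1. Cd74, the invariant chain of MHC class II, was at 291, 1035 and 824 TPM in tumors 1 to 3 and at 0.86 TPM or less in cultures, and H2-Aa was at 94.8, 362 and 296 TPM. All 10 class II genes were higher (median 4.33), 9 of them entering through the tumors alone. Their sum was 600, 2176 and 1761 TPM in tumors, so that tumor 1 had less than tumors 2 and 3 by a wider margin than for the pan-leukocyte genes. Class I genes were already active in culture. B2m, the shared light chain, was at 1077 to 1136 TPM and rose to 3145, 4353 and 4241 TPM, 3.54-fold, and H2-K1 rose 2.75-fold. In that list 18 of 22 genes were higher and none lower (median 1.19). The class I genes are close copies, so their separate levels are uncertain. Psmb8, an immunoproteasome subunit, was at 0.37 TPM or less in cultures and at 35.2, 73.5 and 73.5 TPM in tumors.

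The enzyme studied in the series and its likely readers were measured as well. St3gal3 measured 9.89, 12.9 and 13.4 TPM in the 3 cultures against 14.2, 15.7 and 15.6 TPM in the 3 tumors, without overlap, and the change of 0.32 ± 0.13 did not pass (adjusted p = 0.0584 in limma). In the knockdown line it measured 1.57, 1.29 and 1.89 TPM in cultures and 7.38, 5.98 and 5.86 TPM in tumors, below every control library. Of 12 tested sialyltransferase genes 5 were higher and none lower, near the 40.5% of all tested genes that were higher, and 7 did not pass. The median of the list was 0.33, against 0.18 over all genes. St6gal1, which adds sialic acid in another linkage, rose 2.14-fold, from 7.71 TPM. Siglecs, the receptors on leukocytes that bind sialic acid, were scarce. All 5 tested were higher with culture means under 1 TPM, led by Cd33 at 8.37, 11.04 and 11.06 TPM, and Siglece was at 3.81 to 5.76 TPM in tumors.

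The genes with the largest decreases were not those of a single process. Dnah2, a heavy chain of ciliary dynein, was at 189, 139 and 161 TPM in cultures and at 0.14, 0.60 and 0.75 TPM in tumors. Abca13, a lipid transporter, was at 99.1 to 104 TPM and then at 0.02 to 0.03 TPM, and Cblc, a ubiquitin ligase of epithelia, at 76.4 to 78.4 TPM and then at 0.14 TPM or less. Gnmt, which methylates glycine, fell from 58.6 to 0.197 TPM, Fbxo47 from 87.8 to 0.742 TPM and Tmem120b from 158 to 4.27 TPM. In the same tumors Krt8 and Krt18 kept over 60% of their share, whereas Wfdc2 was at 315 to 325 TPM against 1264 to 1459 TPM in cultures. The part of added host transcripts in these decreases was not tested. The knockdown libraries, tabulated in the same way as the control libraries of their tissue, gave like values, with Dnah2 at 178 TPM in cultures and 0.519 TPM in tumors and Abca13 at 137 and 0.0440 TPM. Whether these changes came with the tables or with growth in the animal cannot be told apart.

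Genes listed at 0 in each of the 3 cultures and at 1 TPM or more in each tumor numbered 360, and the reverse held for 50. Leukocyte genes were prominent among the highest of the first class: Ctss, a lysosomal protease of antigen-presenting cells (203 ± 49.5 TPM in tumors), Tyrobp, a signalling adaptor of myeloid cells (170 ± 17.2 TPM), Ccl8 (164 ± 65.2 TPM), Wfdc17 (74.8 ± 10.8 TPM) and Msr1, a scavenger receptor of macrophages (64.1 ± 1.18 TPM). Rarres2, the attractant chemerin, averaged 74.9 ± 30.4 TPM, and Cxcl14 67.6 ± 9.07 TPM. The highest of all, Tmtc2, is not a leukocyte gene. It encodes a mannosyltransferase of the endoplasmic reticulum and was at 174, 329 and 305 TPM in tumors.

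The reverse class was led by seminal vesicle secretory genes. Svs5, Svs4, Svs6 and Svs2, the secreted proteins of that gland, averaged 140 ± 40.7, 55.3 ± 20.3, 20.7 ± 7.25 and 18.4 ± 7.72 TPM in cultures and were listed at 0 in the 3 tumors. In each of these genes culture 2 was highest and culture 3 lowest. Genes of digestive enzymes made by the pancreas behaved alike: Ctrb1, a chymotrypsinogen, was at 20.1, 25.8 and 24.3 TPM, Cela2a at 6.21 to 8.69 TPM and Amy2a1, an amylase, at 6.25 to 7.56 TPM in cultures, and all were listed at 0 in tumors. Try5, a trypsinogen, fell from 40.2 to 1.61 TPM. Of 11 tested genes of the exocrine pancreas list 10 were lower (median -1.88), 8 of them entering through the cultures alone, and Cela1 was 1.17-fold higher, a call lost on leaving out any 1 library other than culture 3 (adjusted p of up to 0.159 in limma). Among trefoil factors and mucins 3 of 7 tested were higher and 2 lower. Of the 7, 4 had culture means under 1 TPM and 2 had tumor means under 1 TPM. The 2 lower genes were Reg3b, at 1.57 to 2.23 TPM in cultures, and Spink1, at 1.19 to 1.55 TPM. Both were listed at 0 in tumors. Bhmt, a liver enzyme of methionine synthesis, was at 34.9 to 49.0 TPM in cultures and at 0 in tumors.

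Several imprinted genes were near 0 in cultures. Of 8 tested imprinted and oncofetal genes 6 were higher and 2 lower, and 5 had culture means under 1 TPM. Mest and Meg3, imprinted genes, were at 0.11 TPM or less in cultures and at 28.39, 21.43 and 24.96 TPM and 10.7, 19.2 and 19.4 TPM in tumors, and H19 was listed at 0 and then at 3.05 to 5.38 TPM. Igf2bp1, an RNA-binding protein of fetal tissue and tumors, fell to 17.2% of 21.8 TPM. Xist, which silences an X chromosome in female cells, was at 0.01 TPM or less in cultures and at 12.99, 13.55 and 16.17 TPM in tumors. The Y-linked genes Ddx3y and Uty were below the filter, at 0.03 TPM or less in all 6 libraries. The leukocyte, fibroblast and endothelial lists rose in the same tumors, and their part in these increases was not tested.

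Histone genes rose in 8 of 11 tested cases and fell in 2. H1f2, a linker histone, was at 10.4, 10.3 and 14.1 TPM in cultures and at 242, 185 and 283 TPM in tumors, 20.4-fold higher, at the same time as Pcna and Rrm2 fell. H2bc4 rose 5.43-fold. H1f0, a linker histone not tied to replication, rose 2.67-fold. The transcripts of most replication-dependent histone genes lack the poly(A) tail of other messenger RNAs, and the genes are close copies of each other, so single levels are uncertain.

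The same comparison in the line with the St3gal3 hairpin, which shares no library with the control line, gave 9454 calls among 14428 genes (65.5%). Calls of the same direction in both lines numbered 7989, which is 83.6% of the control-line calls and 84.5% of the others, and 13 genes were called in opposite directions. The 2 comparisons were tabulated alike, so a difference between the tables would be shared by both. A test of the difference between lines called 161 of 14804 genes (1.09%), 117 with a larger and 44 with a smaller tumor minus culture change in the knockdown line, at 1775 genes with an unadjusted p under 0.05. The 161 calls became 39 with a pseudocount of 0.1 and 99 with the replicate number as a block. Interferon-stimulated genes were among those with a larger change. Ifit1 changed by 2.41 in the control line and by 3.93 in the knockdown line, a difference of 1.52 (adjusted p = 0.00224 in limma), and Rsad2 and Ifi44 differed by 1.47 and 1.77. Gzma differed by 2.26 (1.56 and 3.82). The mast cell gene Cpa3 differed by 1.52. In the other direction Tff2, a trefoil peptide of mucosal surfaces, was at 50.03, 28.77 and 22.51 TPM in the 3 control tumors and at 3.95 TPM on average in knockdown tumors, a difference of -2.74. Mest, Sparcl1 and Kcne4 differed by -1.47, -1.37 and -1.10. Medians of the interferon-stimulated and interferon-gamma lists were 3.75 and 5.34 in the knockdown line against 2.30 and 3.35, and those of the proliferation and hypoxia lists -1.17 and 1.65 against -1.21 and 1.84.

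**Figure D5:**
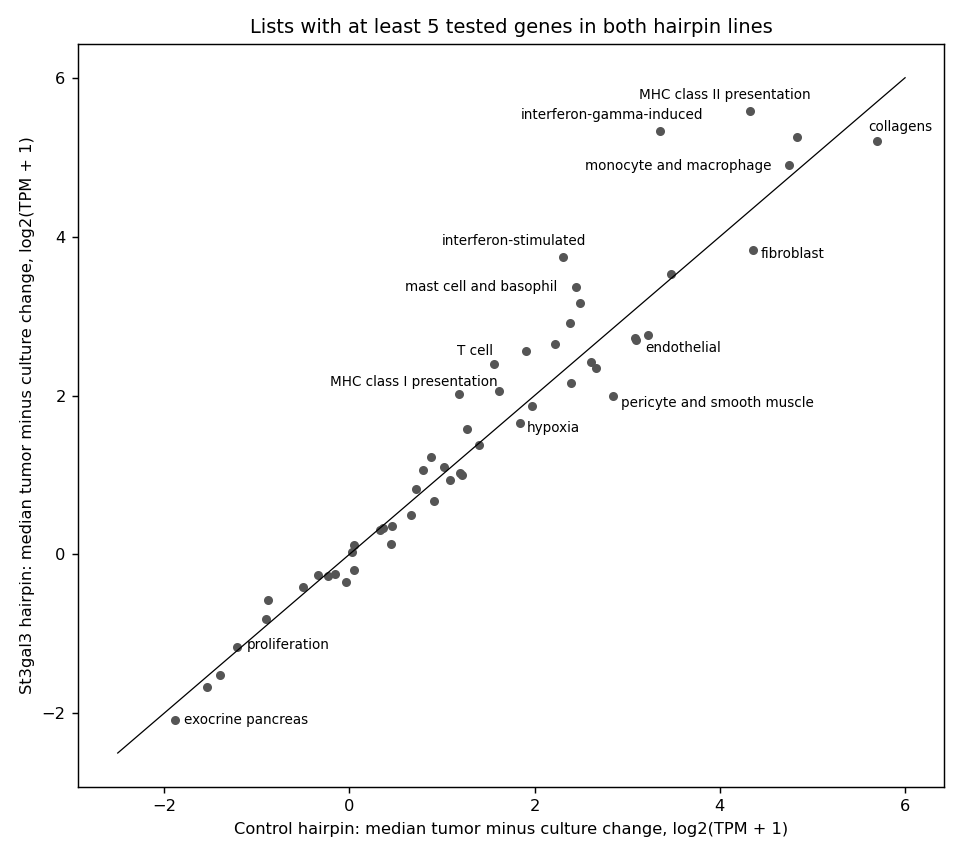
Median tumor minus culture change, log2(TPM + 1), of each list with at least 5 tested genes in the control line (horizontal axis) and the St3gal3 hairpin line (vertical axis), with the line of equal change. Interferon lists lie above the line (3.35 and 5.34 for interferon gamma), as do MHC class II, T cell and mast cell genes, and fibroblast, endothelial and pericyte lists lie below it. Each median covers the members tested in that line, so the members can differ. They numbered 18 and 19 for T cells and 18 and 17 for endothelium in the control and knockdown lines.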

How the data were processed

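RNA sequencing was tabulated per library. The authors deposited TPM per gene, with culture and tumor libraries in separately made tables. Per the submitters' processing notes, fastp, HISAT and RSEM and the build GRCm39 were used, without versions or a statement of which tool gave the TPM.

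TPM was rescaled over the 48555 shared genes, and log2(TPM + 1) was tested with limma 3.58.1 in R 4.3.3 (trended, robust empirical Bayes, two-sided, Benjamini-Hochberg adjustment over all 14358 genes, threshold 0.05); a second test asked for a log2 change above 1. Culture and tumor control libraries entered the fit, 3 each, without covariates. The line comparison used all 12 libraries. Errors after ± are SE for log2 changes and SD (n = 3) for TPM. Percentages and folds are ratios of group means of TPM. The labels do not say that replicate numbers pair the libraries. Correlations of deviations were -0.016, -0.0055 and 0.059 for same-numbered libraries and -0.051 to 0.049 for the others. With 3 libraries per group these values cannot exclude a pairing. The scripts were tested on simulated data. Some genes are not reported here. Depth is unknown, so no counting interval was given. Plots were made with matplotlib 3.10.9.

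Members and lists were chosen with earlier results of these data known. Named genes were a fixed set, the 12 largest changes in each direction, the 12 highest among genes listed at 0 in 1 group, up to 4 members of each list with the smallest p in each direction and the most abundant member, and up to 6 genes in each direction for the difference between lines. Chosen after their values were seen were Acta1, Adgre1, Apoe, Bnip3, Cad, Car9, Ccl17, Ccl2, Ccn1, Cd14, Cd68, Cdc20, Cdkn1a, Col4a1, Col7a1, Col8a1, Cxcl9, Ddit3, Egr1, Eno1, Fap, Gzmd, Gzme, Gzmf, H2-K1, Havcr2, Hmox1, Lamb2, Ldha, Ly6g, Mmp3, Mrc1, Myc, Mylpf, Ncl, Nkg7, Odc1, Osgin1, Pdcd1, Pdgfra, Pdk1, Pkm, S100a8, S100a9, Slc7a11, Tfrc, Trib3, Tvp23a, Vcan, Zeb1, Zeb2, mt-Co3 and the members named as below the filter.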

Additional observations from a re-analysis of the deposited data

Results flagged for a closer look

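For 23 genes named above, the tumor minus culture change differed between the control and the St3gal3 hairpin line in limma's test of the difference itself. That test called 1.09% of all genes. Ifit3, Gzma, Ifi44, Ifit1, Rsad2, Tff2, Mest, Sparcl1 and Kcne4 had been named for their small p in this same test. Their calls therefore followed from that choice, and the number 23 cannot be set against the share over all genes. Values are the change in the knockdown line minus that in the control line on the log2(TPM + 1) scale. St3gal3, the gene the hairpin targets, differed by 1.2 (adjusted p = 0.0121), having changed by 1.52 in the knockdown line.

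Among interferon-stimulated genes the differences were 1.77 for Ifi44, 1.74 for Ifit3, 1.52 for Ifit1, 1.47 for Rsad2, 1.38 for Isg15 and 0.964 for Bst2. Cytotoxic granule genes differed by 2.26 (Gzma), 1.37 (Gzmb) and 0.997 (Prf1), and mast cell genes by 1.52 (Cpa3), 1.26 (Tpsb2) and 1.03 (Tpsab1). All of these changes were larger in the knockdown line.

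Smaller changes in the knockdown line were found for the trefoil peptide Tff2 (-2.74), the imprinted gene Mest (-1.47), Sparcl1 (-1.37), the histones H1f2 (-1.26) and H2bc4 (-1.09), Ccl22 (-1.11), Kcne4 (-1.1), Dll4 (-0.893), Fap (-0.89) and Serpinh1 (-0.547). The largest adjusted p among the 23 was 0.0371, for Dll4.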

How the results depend on the processing

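Calls numbered 9556 (5816 higher, 3740 lower) and stayed within 1.5 times of these counts under every alternative run except the test for a log2 change above 1, which called 1980 (1496 and 484). Leaving out 1 library gave 8392 to 9417 calls, 5071 to 5920 higher and 3260 to 3907 lower. The replicate block, for numbers that the labels do not give as pairs, gave 9697 calls. The difference between lines, 161 genes, fell to 39 with a pseudocount of 0.1 and to 99 with the replicate block. It ranged from 88 to 229 on leaving out 1 library, an alternative chosen after seeing the data, with 93, 91 and 92 without control cultures 1, 2 and 3, 88, 103 and 95 without knockdown cultures 1, 2 and 3, and 104 without knockdown tumor 1. Genes listed at 0 in every culture, 360, became 782 with 0.1 TPM in place of 0 and 125 with 5 TPM in place of 1; the reverse class of 50 became 19 with the latter. Leaving out 1 library removes a condition, so these counts could not fall, and it gave 374 to 454 and 55 to 62. With a pseudocount of 0.1 the list medians given above became 7.23 for macrophages, 5.07 for neutrophils, 5.75 for dendritic cells, 3.87 for T cells, 5.16 for cytotoxic lymphocytes, 5.31 for mast cells, 6.98 for fibroblasts, 4.98 for endothelium, 5.89 for pericytes, 4.13 for complement, 2.58 for matrix glycoproteins, 4.47 for interferon-stimulated and 5.29 for interferon-gamma-induced genes and -4.62 for the exocrine pancreas. With only genes of a mean of 5 TPM or more they became 4.28 for dendritic cells, 2.56 for T cells, 3.75 for complement, 2.09 for matrix glycoproteins, 7.35 for class II genes and -3.08 for the exocrine pancreas. Without a filter they were 2.09 for neutrophils, 1.06 for cytotoxic lymphocytes and -1.2 for the exocrine pancreas. In the knockdown line they were 2.40 for T cells (19 genes tested there against 18), 2.02 for class I genes, 3.75 for interferon-stimulated and 5.34 for interferon-gamma-induced genes. The median of the Schwann cell list turned to -0.16 with quantile normalization, and that of the mesothelial list to -0.061 with it and to -0.00012 without a filter on low values. That of the epithelial and ovarian list turned to 0.014 without the filter and ran from -0.42 to 0.072 on leaving out 1 library, the latter without control culture 3. Tvp23a turned to -0.55 with quantile normalization, and Ly6g, which did not pass in the control line, was lower in the knockdown line (-1.05). The cause of these changes was not tested. Depth is unknown for TPM, so what it limits could not be given.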
